A study of Mus musculus with 12 samples.

Results

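Phase II conjugating enzymes attach a polar group to drugs, dietary phenols, hormones and reactive by-products so that the cell can export them. The genes described here are those whose symbol begins with Ugt1 or Ugt2 (UDP-glucuronosyltransferases), Sult (sulfotransferases), Gsta, Gstm, Gstp, Gstt, Gsto, Gstk or Mgst (glutathione transferases), or Nat followed by a digit (mainly N-acetyltransferases). The array platform carries 69 such genes on 113 probes. A gene was kept when at least 1 of its probes had a detection p under 0.05 on 3 or more of the 12 arrays, and 41 genes with 67 kept probes remained among the 11933 genes tested. The choice used detection and not any difference between groups.

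Messenger RNA was measured on Illumina bead arrays in the colon of male mice, 7 to 8 weeks of age by the labels, with 3 arrays in each of 4 groups. The control mice carry no treatment in the labels, and the DSS mice received dextran sulfate sodium, which erodes the colonic epithelium and thereby induces colitis. The remaining groups received both DSS and DAPP, given only as this abbreviation, while the series title speaks of polyphenols from apple peel: DAPP before DSS (200 in the deposited column names) and DAPP during DSS (400, with no unit given), so that timing and this number cannot be told apart. The sources used here name no strain, vehicle or group given DAPP without DSS, and the samples are labelled biological replicates.

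In the intestine these enzymes act together with efflux pumps at the epithelial surface, where UGTs use UDP-glucuronic acid, SULTs use an activated sulfate, GSTs use glutathione and NATs use acetyl-CoA. Glutathione transferases of the mu, alpha, pi and theta classes also remove lipid peroxidation products, and several of these genes are textbook targets of the transcription factors NRF2, the aryl hydrocarbon receptor, PXR and CAR. DSS injury damages the lining and brings inflammatory cells into the tissue, and in whole colon fewer cells of a type and less RNA per cell cannot be told apart.

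Levels below are normalised log2 intensities, differences are on the log2 scale with the standard error from the limma fit to 3 arrays in each group, and a gene is called when its p, adjusted by Benjamini-Hochberg over all 11933 genes, is under 0.05. Signals of different probes are not compared with each other. Between 17650 and 21444 probes were detected per array, and between 33 and 40 of the 41 enzymes. Replicate 1 of DAPP before DSS stood apart, with a correlation of 0.828 to 0.914 with the other arrays over genes and 33 enzymes detected. Transcripts of the exocrine pancreas were uneven over arrays, with a mean of 14 genes between 6.39 and 8.29 in control, 6.50, 13.43 and 14.05 on the DSS arrays, 12.45 to 14.02 with DAPP before DSS, and 8.98, 6.14 and 14.37 with DAPP during DSS. The liver list stood at 9.99 on DSS replicate 3 and between 6.15 and 7.69 on the other 11 arrays, with 8 of its 10 genes detected there and albumin (Alb) undetected on every array. Of 10 epithelial marker genes, 9 or 10 were detected on each array, with a mean of 11.80 to 12.03 in control, 11.56 to 11.78 in DSS, 11.04, 11.86 and 11.82 in DAPP before DSS and 11.83 to 11.88 in DAPP during DSS.

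Colon of DSS-treated mice carried fewer transcripts of several conjugating enzymes than control colon, and more of 1 of them. Sulfotransferases Sult1c2, Sult2b1 and Sult1a1, the glucuronosyltransferase Ugt2b34 and the mu-class glutathione transferase Gstm2 fell between 1.87-fold and 3.63-fold, while the pi-class enzyme Gstp3 rose 3.62-fold. Of the 41 enzymes 5 were called lower (12.2%, against 2.81% of all genes tested) and 1 higher (2.44%, against 3.91%), 6 in all where 6.71% of all genes were called. The 3 arrays of each group did not overlap for 19 enzymes that were lower in DSS (46.3%, against 16.7% of all genes) and for 4 that were higher (9.76%, against 13.8%). The median difference over the 41 was -0.37, with 29 negative, where the median over all genes was -0.04. It was -0.23 without DSS replicate 1 and -0.24 without background correction or in the authors' processed values.

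**Figure D1:**
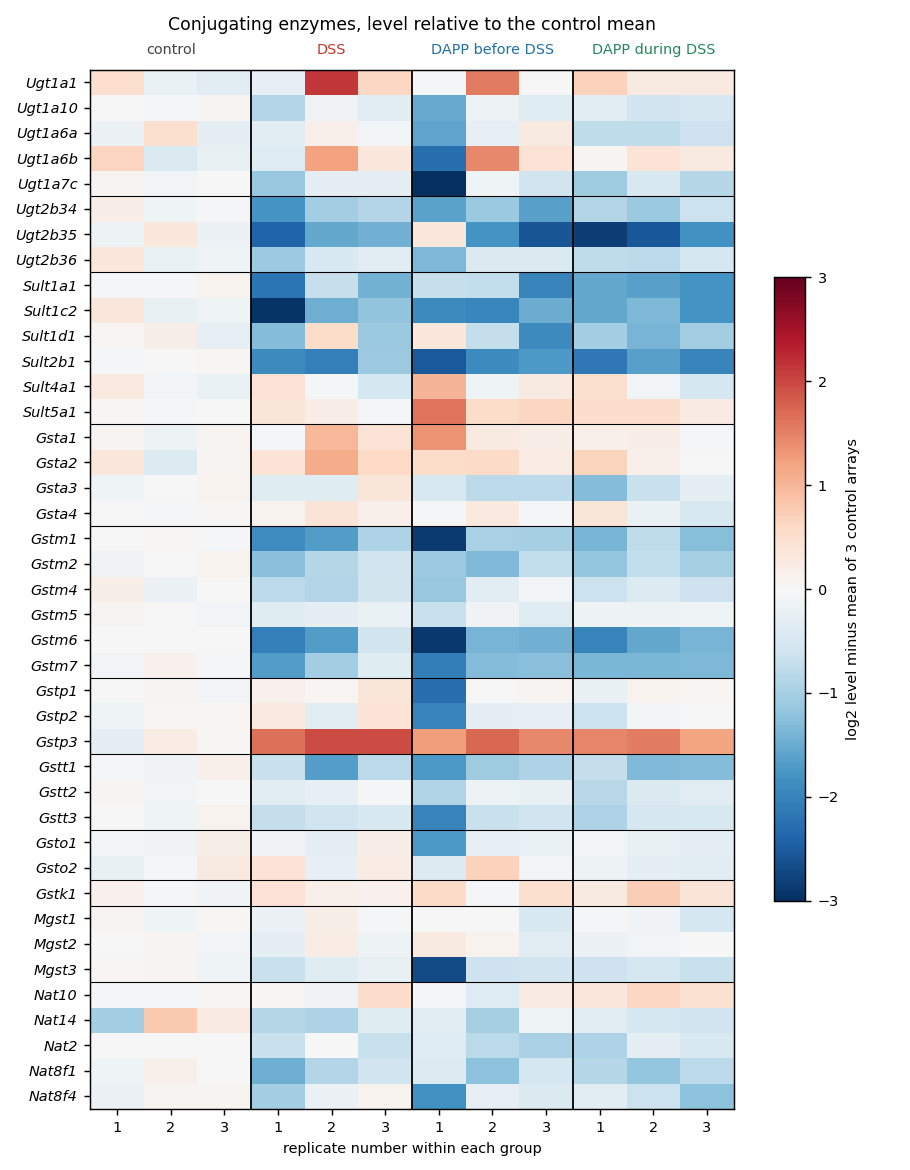
Levels of the 41 detected conjugating enzymes on each of the 12 arrays, as log2 level minus the mean of the 3 control arrays, grouped by family from UGTs at the top to NATs at the bottom. Colours stop at 3 in either direction. Sult1c2, Sult2b1, Gstm1, Gstm2, Gstm6 and Gstm7 are blue on all DSS-treated arrays, while Gstm4 and Gstm5 are close to the control mean on some of them. Gstp3 is red on all DSS-treated arrays, and replicate 1 of DAPP before DSS has additional blue rows such as Gstp1, Gsto1 and Mgst3.

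Markers of other compartments moved in the same comparison. All 7 smooth muscle markers lay lower in DSS with no overlap (16.7% of all genes), and 6 were called lower (2.81% of all genes). Their list means were 11.12 to 11.27 in control and 9.47 to 10.03 in DSS. The absorptive colonocyte list, of 14 genes, had means of 12.01 to 12.04 in control and 11.37, 11.89 and 11.91 in DSS. The neutrophil list, with 5 of 7 tested genes called higher (3.91% of all genes), had means of 5.37 to 5.58 in control and 8.61 to 10.14 in DSS. Of its genes, Csf3r, Cxcr2 and Ngp were undetected on every control array, and Retnlg was detected on control replicate 1 only. They were kept only through the groups where they are high, so any call of theirs is no support for a difference. S100a8 and S100a9 were detected on every array. With the epithelium list mean as a covariate, an alternative chosen after seeing the data, the median over the enzymes was -0.13, and 10 enzymes were called in place of 6, while the genes called over the whole array went from 801 to 1327 of 11933. The part of these cell types in the enzyme differences was not tested.

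**Figure D2:**
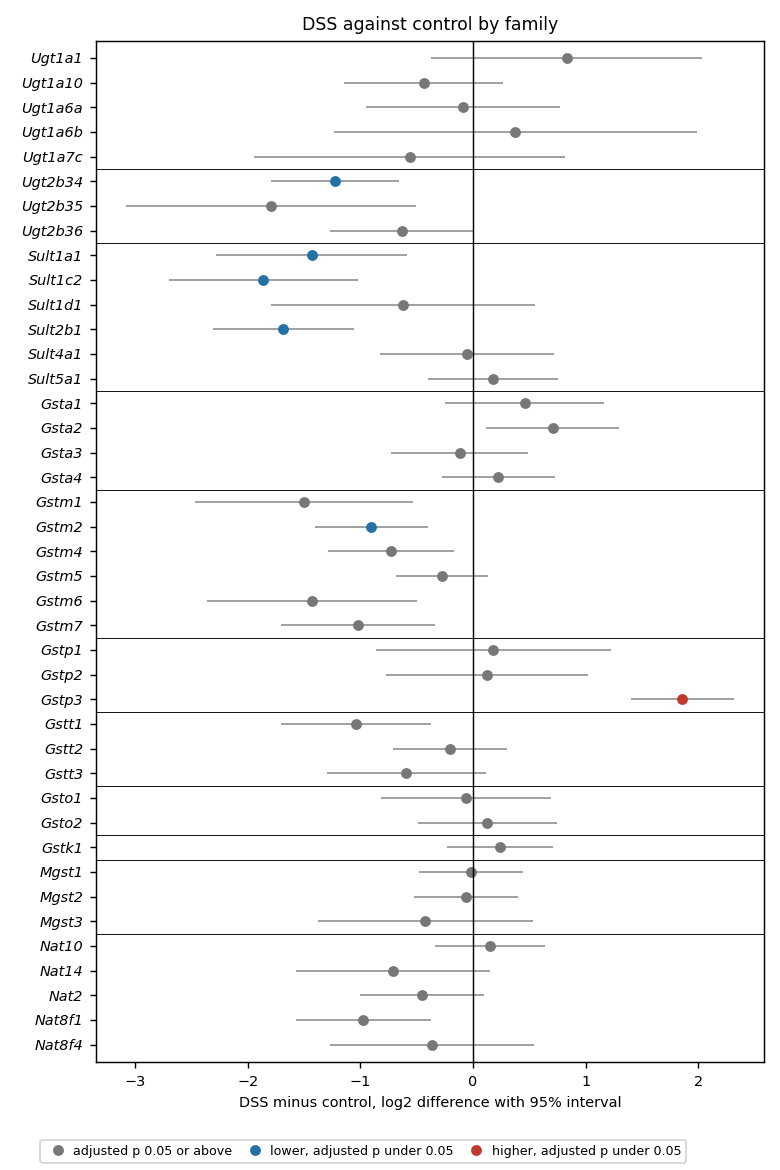
DSS minus control for each of the 41 enzymes, ordered by family, as a log2 difference with its 95% interval from the model over 12 arrays. The called enzymes are Ugt2b34, Sult1a1, Sult1c2, Sult2b1 and Gstm2 to the left of 0 and Gstp3 to the right.

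Glucuronosyltransferases of the Ugt2 family conjugate steroids, bile acids and xenobiotics. All 3 kept members of 10 on the array lay lower in DSS with no overlap between groups, as did 16.7% of all genes. Ugt2b34 stood at 10.02, 9.69 and 9.75 on the control arrays, 8.06, 8.78 and 8.93 in DSS, 8.20, 8.70 and 8.18 with DAPP before DSS, and 8.93, 8.71 and 9.18 with DAPP during DSS. Every treated array was thus below every control array for Ugt2b34. Ugt2b34 fell by 1.23 (SE 0.26) in DSS (limma adjusted p = 0.0138) and by 1.46 (SE 0.26) in DAPP before DSS (limma adjusted p = 0.00387), and stood at -0.88 ± 0.26 in DAPP during DSS (limma adjusted p = 0.0632).

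Ugt2b35 showed the largest difference of the family and the widest spread. Ugt2b35 was at 7.77, 8.25 and 7.76 in control, 5.53, 6.39 and 6.49 in DSS, 8.28, 6.13 and 5.36 with DAPP before DSS, and 5.12, 5.39 and 6.11 with DAPP during DSS. Replicate 1 of DAPP before DSS was above all control arrays for Ugt2b35, while the other DSS-treated arrays were below them. The difference from control was -2.39 ± 0.59 in DAPP during DSS, which passed (limma adjusted p = 0.0282), and -1.79 ± 0.59 in DSS and -1.34 ± 0.59 in DAPP before DSS, which did not (limma adjusted p = 0.102 and 0.172). Ugt2b36 stood at -0.63 ± 0.29, -0.74 ± 0.29 and -0.69 ± 0.29 in the DSS group and in the groups given DAPP before and during DSS, none of them called. Its signal was near background, with detection on 2 of 3 arrays in DSS and in DAPP before DSS. A dimmer kept probe of Ugt2b36 was at 5.72, 4.93 and 4.95 in control and 4.50, 5.08 and 6.21 in DSS, groups that overlap.

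The Ugt1 genes share their last exons and overlap on chromosome 1, so their probes may read more than 1 of them. None of the 5 kept Ugt1 members of 8 on the array was called in any comparison. Ugt1a10, with the brightest probe of the family, differed from control by -0.44 ± 0.32 in DSS, and 2 of its other 3 kept probes, also detected on all arrays, gave -0.40 and -0.41. Ugt1a1, which conjugates bilirubin, was detected on 0 of 3 control arrays and 2 of 3 DSS arrays, at 5.44, 4.73 and 4.60 in control and 4.67, 7.04 and 5.54 in DSS. DSS replicate 2 alone lay clearly above the control arrays for Ugt1a1. The remaining members stood between -0.56 ± 0.63 (Ugt1a7c) and 0.38 ± 0.74 (Ugt1a6b) in DSS, with Ugt1a6a, a phenol-conjugating enzyme, at -0.09 ± 0.39. On replicate 1 of DAPP before DSS Ugt1a7c was at 6.88, against 9.63 and 10.08 on the other arrays of that group.

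Among sulfotransferases 6 of 16 genes on the array were kept, and 3 of them fell in DSS. Sult2b1, which sulfates cholesterol and other hydroxysteroids, was at 10.02, 10.03 and 10.10 in control, 8.14, 8.00 and 8.97 in DSS, 7.53, 8.13 and 8.33 with DAPP before DSS, and 7.91, 8.43 and 8.08 with DAPP during DSS. The control arrays lay close together for Sult2b1, and every treated array was more than 1 unit below them. Sult2b1 fell by 1.68 (SE 0.29) in DSS, by 2.05 (SE 0.29) in DAPP before DSS and by 1.91 (SE 0.29) in DAPP during DSS (limma adjusted p = 0.00386, 0.000848 and 0.00176). Its other kept probes gave -1.47 and -1.55 for DSS and between -2.10 and -1.35 for the DAPP groups, all called among probes. Sult2b1 and Gstp3 were called in each comparison with control under all 26 alternative settings.

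Promoters are shown for Sult2b1 as the sulfotransferase called under all these settings. Each holds 250 bases before and 50 after an annotated start (RefSeq, GRCm38.p6, minus strand), at chr7:45742429-45742728 and chr7:45759563-45759862 on chromosome 7. Capitals mark the core of the xenobiotic response element, GCGTG on either strand, where the aryl hydrocarbon receptor can bind.
Sult2b1 start 1: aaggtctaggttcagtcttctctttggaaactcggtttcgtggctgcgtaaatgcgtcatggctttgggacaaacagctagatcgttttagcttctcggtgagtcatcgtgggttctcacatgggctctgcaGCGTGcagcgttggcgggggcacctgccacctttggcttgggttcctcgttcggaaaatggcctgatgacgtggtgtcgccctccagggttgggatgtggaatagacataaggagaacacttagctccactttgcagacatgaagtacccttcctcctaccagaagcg
Sult2b1 start 2: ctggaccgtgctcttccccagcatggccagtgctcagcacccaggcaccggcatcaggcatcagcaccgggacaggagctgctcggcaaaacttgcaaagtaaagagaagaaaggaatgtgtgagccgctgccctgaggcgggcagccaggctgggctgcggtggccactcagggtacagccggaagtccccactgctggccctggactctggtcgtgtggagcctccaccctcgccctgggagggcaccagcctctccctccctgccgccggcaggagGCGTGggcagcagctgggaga
This core occurs in 32.4% of 32851 promoters of this length, and the presence of a match in both Sult2b1 windows is a description of the letters.

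Sult1c2, a cytosolic sulfotransferase of phenols, was at 11.51, 10.94 and 11.04 in control, 8.22, 9.71 and 9.98 in DSS, 9.25, 9.22 and 9.67 with DAPP before DSS, and 9.64, 9.81 and 9.38 with DAPP during DSS. All 9 treated arrays were below the control arrays, with DSS replicate 1 the lowest. Sult1c2 fell by 1.86 (SE 0.38), 1.79 (SE 0.38) and 1.56 (SE 0.38) in these 3 groups (limma adjusted p = 0.0118, 0.0109 and 0.0281), and by 1.32 in DSS without DSS replicate 1. Without control replicate 1 the calls for Sult1c2 were lost in all 3 comparisons.

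Sult1a1, the main phenol sulfotransferase of many tissues, was at 13.43, 13.43 and 13.58 in control, 11.30, 12.78 and 12.06 in DSS, 12.80, 12.74 and 11.48 with DAPP before DSS, and 11.95, 11.85 and 11.69 with DAPP during DSS. The DAPP during DSS arrays lay close together, and no treated array reached the control level. Sult1a1 fell by 1.43 (SE 0.39) in DSS and by 1.65 (SE 0.39) in DAPP during DSS (limma adjusted p = 0.0469 and 0.022), and stood at -1.14 ± 0.39 in DAPP before DSS (limma adjusted p = 0.0826). The DSS call for Sult1a1 was lost in 8 of the 12 fits that leave out 1 array.

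Sult1d1, which in mice sulfates catecholamines, did not pass, at 11.41, 11.54 and 11.12 in control, 10.05, 11.90 and 10.24 in DSS, 11.67, 10.65 and 9.45 with DAPP before DSS, and 10.35, 9.95 and 10.32 with DAPP during DSS. DSS replicate 2 and DAPP before DSS replicate 1 were above the control arrays for Sult1d1, as they were the highest of their groups for Sult1a1. Sult4a1, a sulfotransferase-like gene best known from brain, stood at -0.05 ± 0.35 in DSS. Sult5a1, a member with no well-defined substrate, was undetected on all control and DSS arrays and detected on 2 of 3 arrays of each DAPP group. It was therefore kept only through the groups where it is high, and its call in DAPP before DSS is counted below but is no support for a difference. Its levels there were 6.33, 5.28 and 5.38, at least 1.10-fold above control, and the call was lost in 8 of the 12 fits that leave out 1 array.

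**Figure D3:**
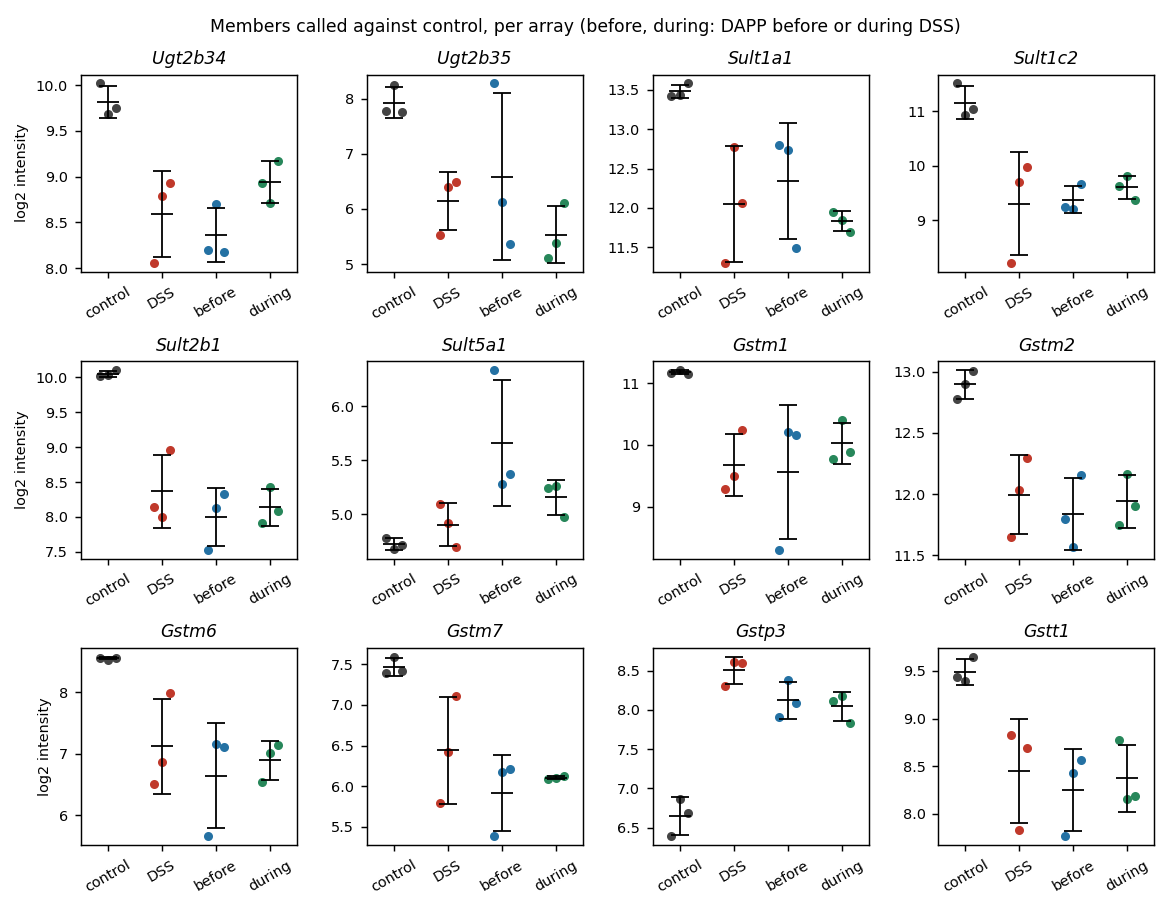
Normalised log2 intensity on each array (points) for the 12 enzymes called in at least 1 comparison with control, with the mean and SD of 3 arrays per group (bars). Each panel has its own axis, which does not start at 0. The control arrays lie above all treated arrays in the panels other than Ugt2b35, where 1 array of DAPP before DSS is as high, Gstp3, where they lie below all others, and Sult5a1, where they overlap the DSS arrays at the bottom.

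Glutathione transferases made up 22 of the 41 enzymes, of which Gstm2 was called lower and Gstp3 higher in DSS. The mu class, which conjugates electrophiles and lipid aldehydes and lies as a cluster on chromosome 3, had 6 kept members of 7, all of them lower in DSS with no overlap, as were 16.7% of all genes, and with a median of -0.96. Gstm2 was at 12.78, 12.90 and 13.01 in control, 11.65, 12.04 and 12.29 in DSS, 11.80, 11.57 and 12.15 with DAPP before DSS, and 11.75, 12.17 and 11.91 with DAPP during DSS. Every treated array was below the lowest control array. Gstm2 fell by 0.90 (SE 0.23), 1.06 (SE 0.23) and 0.96 (SE 0.23) in the 3 groups (limma adjusted p = 0.0347, 0.0115 and 0.0243), and its other kept probes gave -0.97 and -0.81 for DSS. The DSS call for Gstm2 was lost in 7 of the 12 fits that leave out 1 array.

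Gstm6 and Gstm7 differed from control by more than Gstm2 in DSS, with a larger standard error. Gstm6 was at 8.55, 8.53 and 8.56 in control, 6.51, 6.87 and 7.98 in DSS, 5.66, 7.15 and 7.11 with DAPP before DSS, and 6.54, 7.01 and 7.14 with DAPP during DSS. Gstm7 was at 7.39, 7.59 and 7.42 in control, 5.80, 6.42 and 7.11 in DSS, 5.38, 6.17 and 6.21 with DAPP before DSS, and 6.09, 6.10 and 6.13 with DAPP during DSS. In DSS the highest array for both genes was replicate 3, the array on which the liver list stood at 9.99, and replicate 1 of DAPP before DSS was the lowest array of all. Gstm6 and Gstm7 passed in DAPP before DSS, with falls of 1.91 (SE 0.43) and 1.54 (SE 0.31), and in DAPP during DSS, with falls of 1.65 (SE 0.43) and 1.36 (SE 0.31), but not in DSS, at -1.43 ± 0.43 and -1.02 ± 0.31 (limma adjusted p = 0.0718 and 0.0789). Both calls in DAPP during DSS were lost with equal medians and in 6 of the 12 fits that leave out 1 array.

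Gstm1 stood at 11.17, 11.21 and 11.14 in control, 9.29, 9.49 and 10.24 in DSS, 8.30, 10.20 and 10.17 with DAPP before DSS, and 9.78, 10.40 and 9.89 with DAPP during DSS. The control arrays were tightly grouped for Gstm1 and all treated arrays lay below them. Gstm1 fell by 1.62 (SE 0.44) in DAPP before DSS (limma adjusted p = 0.0357), or 0.99 without its replicate 1, and stood at -1.50 ± 0.44 in DSS (limma adjusted p = 0.0685). A dim further probe of Gstm1, detected on 5 arrays, gave 0.21 in DAPP before DSS and 0.65 in DSS, opposite in sign and not called. Gstm4 and Gstm5 did not pass, at -0.73 ± 0.26 and -0.27 ± 0.19 in DSS. Genes of this class are close copies, and a probe may read a neighbour. When the arrays were scaled to equal medians the mu class was lower in 6 of 6 cases in DSS and DAPP before DSS and in 5 of 6 in DAPP during DSS, with Gstm5 at 0.29.

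The promoter of Gstm7 is printed because it holds the core of the antioxidant response element, TGACNNNGC on either strand (capitals), where NRF2 can bind with small MAF proteins. The window lies at chr3:107931565-107931864 on the minus strand (RefSeq, GRCm38.p6), and a window at another annotated start of the gene holds no match.
Gstm7: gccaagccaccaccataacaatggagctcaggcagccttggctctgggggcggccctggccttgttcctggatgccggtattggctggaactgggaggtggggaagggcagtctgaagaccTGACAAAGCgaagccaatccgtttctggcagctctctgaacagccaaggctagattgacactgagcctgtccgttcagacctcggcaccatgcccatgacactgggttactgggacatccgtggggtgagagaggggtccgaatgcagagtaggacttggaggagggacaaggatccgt
The core occurs in 12.4% of all promoters and in 10.4% of the 48 promoters found for 36 of the 41 enzymes. The enzymes with a match are Gsta3, Gstm5, Gstm7, Mgst1 and Nat8f4, and of these Gstm7 alone was called. In Gstm5 this match overlaps a xenobiotic core.

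Pi-class transferases, 3 neighbouring genes on chromosome 19, did not move together. Gstp3 was at 6.39, 6.86 and 6.69 in control, 8.31, 8.61 and 8.59 in DSS, 7.91, 8.38 and 8.09 with DAPP before DSS, and 8.11, 8.18 and 7.84 with DAPP during DSS. All treated arrays were above all control arrays. Gstp3 rose by 1.86 ± 0.21 in DSS, 1.48 ± 0.21 in DAPP before DSS and 1.40 ± 0.21 in DAPP during DSS (limma adjusted p = 0.000266, 0.000964 and 0.00177). It has 1 probe, detected on all 12 arrays, and no other enzyme was called higher in DSS.

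Gstp1, the abundant detoxifying enzyme of the class, was at 12.51, 12.57 and 12.40 in control, 12.61, 12.55 and 12.85 in DSS, 10.22, 12.47 and 12.58 with DAPP before DSS, and 12.27, 12.59 and 12.56 with DAPP during DSS. Gstp2 was at 11.15, 11.36 and 11.36 in control, 11.58, 10.95 and 11.70 in DSS, 9.30, 11.00 and 11.04 with DAPP before DSS, and 10.66, 11.22 and 11.30 with DAPP during DSS. Replicate 1 of DAPP before DSS was more than 1 unit below every other array for both genes, and the rest overlapped. Gstp1 and Gstp2 differed by 0.18 ± 0.48 and 0.12 ± 0.41 between DSS and control, with 95% intervals of -0.86 to 1.22 and -0.77 to 1.02, below the interval of 1.40 to 2.32 for Gstp3.

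The promoters of these 3 neighbours are printed side by side because only Gstp3 was called. They lie on the minus strand at chr19:4037863-4038162 (Gstp1), chr19:4042172-4042471 (Gstp2) and chr19:4059398-4059697 (Gstp3) in RefSeq's GRCm38.p6, with the xenobiotic core in capitals.
Gstp1: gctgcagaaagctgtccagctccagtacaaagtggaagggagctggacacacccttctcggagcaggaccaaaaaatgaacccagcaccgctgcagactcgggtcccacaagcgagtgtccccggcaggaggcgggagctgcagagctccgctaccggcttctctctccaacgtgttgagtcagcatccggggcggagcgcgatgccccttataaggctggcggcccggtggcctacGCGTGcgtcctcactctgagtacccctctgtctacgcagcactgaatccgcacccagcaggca
Gstp2: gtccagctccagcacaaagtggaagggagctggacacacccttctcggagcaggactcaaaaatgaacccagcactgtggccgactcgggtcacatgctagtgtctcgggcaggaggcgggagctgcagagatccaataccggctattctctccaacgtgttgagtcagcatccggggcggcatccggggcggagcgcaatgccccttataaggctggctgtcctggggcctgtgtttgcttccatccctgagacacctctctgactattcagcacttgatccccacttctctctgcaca
Gstp3: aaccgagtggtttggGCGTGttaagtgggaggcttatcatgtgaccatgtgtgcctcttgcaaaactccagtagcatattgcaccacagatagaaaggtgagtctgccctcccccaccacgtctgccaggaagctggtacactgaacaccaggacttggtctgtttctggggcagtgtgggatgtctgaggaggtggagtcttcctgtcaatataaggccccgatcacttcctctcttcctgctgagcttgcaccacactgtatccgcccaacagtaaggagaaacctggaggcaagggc
In a global alignment Gstp1 and Gstp2 were 76.6% identical over these windows, while Gstp3 was 51.2% identical to Gstp1 and 45.8% to Gstp2. The xenobiotic core occurs in Gstp1 and Gstp3 and in neither window was an antioxidant core found. Over the enzymes, 12 have a xenobiotic core in a promoter, or 29.2% of the 48 windows, against 32.4% of all promoters.

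Theta-class transferases, which act on small halogenated compounds among others, lay lower in all 3 kept members of 4. Gstt1 was at 9.44, 9.39 and 9.64 in control, 8.83, 7.83 and 8.69 in DSS, 7.76, 8.43 and 8.56 with DAPP before DSS, and 8.78, 8.16 and 8.19 with DAPP during DSS. All treated arrays were below control. Gstt1 fell by 1.24 (SE 0.31) in DAPP before DSS and by 1.12 (SE 0.31) in DAPP during DSS (limma adjusted p = 0.0222 and 0.0449), and stood at -1.04 ± 0.31 in DSS (limma adjusted p = 0.0669). Without replicate 1 of DAPP before DSS its call in that group was lost, at a difference of -0.99. Gstt3 did not overlap control in any group, at -0.59 ± 0.32, -1.08 ± 0.32 and -0.64 ± 0.32, with no call, and Gstt2 stood at -0.21 ± 0.23 in DSS.

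Alpha-class transferases, which reduce lipid hydroperoxides, were kept in 4 of 4 cases and none was called. Gsta2 was at 8.81, 8.07 and 8.55 in control and 8.89, 9.58 and 9.06 in DSS, groups that did not overlap, with a difference of 0.70 ± 0.27 (limma adjusted p = 0.163). Gsta1 and Gsta4 differed by 0.46 ± 0.32 and 0.22 ± 0.23 in DSS, and Gsta3, with the brightest probe of the class, by -0.12 ± 0.28. Gsta3 was lower than control without overlap in both DAPP groups, at -0.69 ± 0.28 and -0.74 ± 0.28, without passing (limma adjusted p = 0.138 and 0.144).

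Transferases of the remaining classes were close to control in DSS. Gsto1, an omega-class enzyme that also reduces dehydroascorbate, differed by -0.06 ± 0.35, the mitochondrial and peroxisomal Gstk1 by 0.24 ± 0.22, and the membrane-bound Mgst1 and Mgst2 by -0.02 ± 0.21 and -0.06 ± 0.21. Mgst3 lay lower without overlap, at 14.06, 14.09 and 13.88 in control and 13.34, 13.64 and 13.78 in DSS, with a difference of -0.42 ± 0.44. On replicate 1 of DAPP before DSS Mgst3 stood at 11.34 and Gsto1 at 11.77, the lowest values of those genes. Gsto2 was detected on 0 of 3 control arrays and 3 of 12 arrays in all, and no difference is given for it.

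Of 11 genes named Nat on the array 5 were kept, none of them called. Nat2, the arylamine N-acetyltransferase, was at 10.44, 10.43 and 10.42 in control, 9.76, 10.41 and 9.75 in DSS, 10.03, 9.61 and 9.46 with DAPP before DSS, and 9.50, 10.16 and 9.97 with DAPP during DSS. All treated arrays lay below the control arrays for Nat2, DSS replicate 2 only just so, and the difference was -0.46 ± 0.25 in DSS (limma adjusted p = 0.361). Nat8f1 differed by -0.97 ± 0.27 (limma adjusted p = 0.0559), without overlap, and its relative Nat8f4 by -0.37 ± 0.42. These belong to the NAT8 family, whose members acetylate cysteine conjugates, while Nat10, an RNA acetyltransferase, and Nat14 match by name only. Nat10 was detected on 0 of 3 control arrays and Nat14 stood at -0.71 ± 0.39 in DSS, and without them the median over the enzymes was still -0.37.

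Another 28 genes did not pass the detection filter, 23 of which were undetected by every probe on all 12 arrays. Among them are the oestrogen sulfotransferase Sult1e1, the hydroxysteroid sulfotransferases Sult2a1 and Sult2a2, the arylamine acetyltransferases Nat1 and Nat3, Sult1b1, Ugt1a9, Ugt2a3, Ugt2b1 and Ugt2b5. An undetected probe says only that the signal did not exceed the background of the array.

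Both DAPP groups were also set against control, a comparison that shares its control arrays with the one above. In DAPP before DSS 8 enzymes were lower (19.5%, against 4.94% of all genes) and 2 higher (4.88%, against 6.27%), 10 in all with Sult5a1 (11.2% of all genes), with a median of -0.72 over the 41, which was -0.27 without replicate 1 of that group. In DAPP during DSS 8 were lower (19.5%, against 3.15%) and 1 higher (2.44%, against 4.53%), 9 in all (7.68% of all genes), with a median of -0.55. Beside Gstm6 and Gstm7, the DAPP during DSS calls were lost in 7 of the 12 fits that leave out 1 array for Gstt1, in 6 for Sult1a1 and Sult1c2, and in 5 for Gstm2 and Ugt2b35. With the arrays scaled to equal medians the median over all genes shifted to 0.38 in DAPP during DSS against control, and the median over the enzymes was then -0.06, or -0.43 relative to all genes. Groups did not overlap for 22 enzymes lower than control in DAPP before DSS (53.7%, against 15.2%) and 24 in DAPP during DSS (58.5%, against 22.1%), and for 3 and 4 that were higher (against 14.0% and 18.8%), among them Sult5a1 in both groups and Nat10 in DAPP during DSS, neither of them detected in control. A test for any difference among the 4 groups called 6 enzymes (6.77% of all genes), namely Gstp3, Sult2b1, Ugt2b34, Sult1c2, Gstm7 and Gstm2. Over all 9 DSS-treated arrays 17 enzymes lay below every control array (8.55% of all genes) and 1 above (8.06%).

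Whether DAPP moved these enzymes away from their level in DSS was asked directly, and no enzyme was called. Between DAPP before DSS and DSS 0 of 41 passed in limma (0% of all genes), with 2 enzymes, Sult5a1 and Gstp2, at an unadjusted p under 0.05 (4.48% of all genes) and a lowest adjusted p of 0.851. Between DAPP during DSS and DSS 0 of 41 passed (0% of all genes), with Gsta3 and Gstp3 at an unadjusted p under 0.05 (2.66%). Between the DAPP groups 0 of 41 passed (0% of all genes), with Nat10 and Ugt2b34 at an unadjusted p under 0.05 (4.06%). Of these, Sult5a1 in DSS and Nat10 in DAPP before DSS were undetected on all 3 arrays. The count was 0 in each of these 3 comparisons under every alternative setting listed in the closing section.

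The intervals give the range of differences that the arrays leave possible. For Sult2b1 the 95% interval was -0.99 to 0.25 in DAPP before DSS against DSS and -0.85 to 0.40 in DAPP during DSS, where DSS itself stood at -1.68 from control. For Sult1c2 it was -0.76 to 0.91 and -0.53 to 1.14, and for Gstm2 -0.65 to 0.35 and -0.55 to 0.44. For Ugt2b34 it was -0.80 to 0.34 and -0.22 to 0.92, and for Sult1a1 -0.55 to 1.14 and -1.06 to 0.63. These upper bounds lie below the size of the estimated DSS difference for each of the 5 enzymes, and smaller shifts toward control are within the intervals. The 5 enzymes were taken because they were called in DSS, and both comparisons share the DSS arrays. The DSS difference also has its own error, and for Sult1a1 it was as small as -1.06 when 1 array was left out. These bounds alone therefore do not settle whether levels returned to control, which the direct comparisons with control address. There Sult2b1, Sult1c2 and Gstm2 were called lower in both DAPP groups, Ugt2b34 in DAPP before DSS and Sult1a1 in DAPP during DSS. Some of these calls were lost when 1 array was left out. For each of the 5 enzymes all 9 treated arrays were below every control array.

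Gstp3 lay nearer to control in DAPP during DSS than in DSS by 0.46 ± 0.21, with an interval of -0.92 to -0.0011 and no overlap between the groups, but with a limma adjusted p of 1.00. In DAPP before DSS it stood at -0.38 ± 0.21 from DSS, with overlap. Beside Gstp3 the arrays of DAPP during DSS and DSS did not overlap for Gstt2, Ugt1a6a and Gstm5, at -0.32 ± 0.23, -0.63 ± 0.39 and 0.13 ± 0.19 (4 of 41 enzymes, against 11.3% of all genes). Between DAPP before DSS and DSS they did not overlap for Gsta3, at -0.57 ± 0.28, and for Sult5a1, at least 1.22-fold higher over DSS arrays on which it was undetected (2 of 41, against 6.48%). Mean raw signal per array ran from 601 to 728 in both DAPP groups and from 433 to 507 in the other groups, and its part in these differences was not tested.

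Between the DAPP groups, Ugt2b34 was lower in DAPP before DSS by 0.58 ± 0.26, Nat10 was not well above background on any array of that group and gets no fold, and Gsta1 and Sult5a1 higher by 0.50 ± 0.32 and 0.50 ± 0.26. These 4 enzymes are those whose arrays did not overlap (7.90% of all genes). None of them was called.

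**Figure D4:**
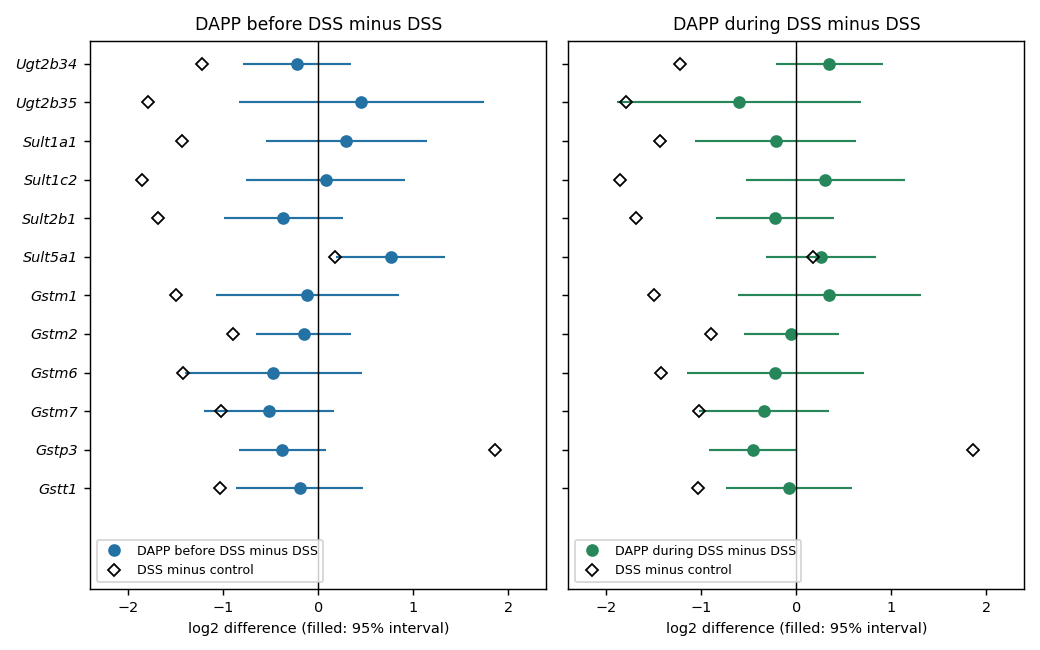
Each DAPP group minus DSS for the 12 enzymes called against control, as a log2 difference with its 95% interval (filled points), beside DSS minus control for the same enzymes (open diamonds). The intervals include 0 for all but Sult5a1 on the left, undetected on the DSS arrays, and Gstp3 on the right, whose upper bound is -0.0011, and no enzyme passed the test.

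Genes that supply, regulate, accompany or undo conjugation were described from 5 lists. Among suppliers of cosubstrates, 1 of 14 tested genes rose and 1 fell in DSS, where 3.91% of all genes rose and 2.81% fell. Papss1, which makes the activated sulfate used by SULTs, was at 12.08, 11.94 and 12.10 in control, 10.68, 11.05 and 11.46 in DSS, 10.21, 11.17 and 10.85 with DAPP before DSS, and 10.84, 10.79 and 10.91 with DAPP during DSS, below control on all treated arrays. It fell by 0.98 (SE 0.26), 1.30 (SE 0.26) and 1.19 (SE 0.26) in these groups (limma adjusted p = 0.0472, 0.00835 and 0.0164). Papss2, its relative, stood at -0.07 ± 0.28 in DSS. Slc7a11, which imports cystine for glutathione synthesis, rose by 2.42 ± 0.65 in DSS and 2.48 ± 0.65 in DAPP before DSS. On control replicates 1 and 2 it stood at 4.75 and 5.21, under the lowest detected signals of 5.55 and 5.60. Slc7a11 was thus kept only through the groups where it is high, and its calls are counted but are no support for a difference. Gclc, a subunit of the first enzyme of glutathione synthesis, stood at 0.26 ± 0.38 in DSS. Cth, which makes cysteine, and Acss2, which makes acetyl-CoA, were called only in DAPP before DSS, with falls of 2.04 (SE 0.60) and 1.49 (SE 0.35). Both genes were nevertheless below every control array on all treated arrays, with replicate 1 of DAPP before DSS the lowest. Cth was at 8.79, 8.46 and 8.46 in control, 6.58, 7.22 and 7.76 in DSS, and 4.72, 7.48 and 7.40 with DAPP before DSS. With DAPP during DSS Cth was at 7.16, 7.90 and 7.48.

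None of 15 regulators was called in DSS, by limma at an adjusted p under 0.05, and 4 had an unadjusted p under 0.05 (19.7% of all genes). Nfe2l2, which encodes NRF2, stood at -0.02 ± 0.52 and Nr1i2, which encodes PXR, at -0.45 ± 0.28. Nr1i3, which encodes CAR, fell by 1.01 (SE 0.30) in DAPP before DSS (limma adjusted p = 0.0479). Ahr, Ugdh and Abcg2, which are on the array, did not pass the detection filter.

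Of 17 other conjugating and detoxifying enzymes 4 fell (2.81% of all genes) and 1 rose (3.91%) in DSS. The microsomal epoxide hydrolase Ephx1 was at 9.56, 9.91 and 9.61 in control and 7.89, 8.06 and 8.21 in DSS, without overlap, and fell by 1.64 (SE 0.21) in the DSS group, by 1.40 (SE 0.21) with DAPP given before and by 1.52 (SE 0.21) with DAPP given during DSS. The soluble epoxide hydrolase Ephx2 and the sigma-class glutathione transferase Hpgds, which makes prostaglandin D, fell by 0.84 (SE 0.23) and 0.93 (SE 0.25) in DSS. The methyltransferase Inmt fell by 2.92 (SE 0.76) and Nnmt, which methylates nicotinamide, rose by 1.60 ± 0.43. In DAPP during DSS the carbonyl reductase Cbr3 fell by 1.16 (SE 0.26). Cbr3 was below every control array (11.08, 11.22 and 11.43) on all treated arrays. It stood at 9.85, 10.57 and 10.76 in DSS and at 10.76, 10.09 and 10.33 with DAPP before DSS.

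Genes of conjugate breakdown rose in 3 of 11 cases in DSS, 2 in DAPP before DSS and 3 in DAPP during DSS (3.91%, 6.27% and 4.53% of all genes), and none fell. Gusb, the lysosomal beta-glucuronidase, was at 10.43, 10.49 and 10.80 in control and 11.46, 11.24 and 11.42 in DSS, and rose by 0.80 ± 0.22 (limma adjusted p = 0.0484). Dpep2, a dipeptidase of glutathione conjugates and leukotrienes, rose by 1.87 ± 0.40. On control replicates 1 and 3 it stood at 5.40 and 5.08, under the lowest detected signals of 5.55 and 5.43. Dpep2 was thus kept only through the groups where it is high, and its call is likewise no support for a difference. Ggt5, a gamma-glutamyl transferase undetected in control, was at least 2.12-fold higher in DSS. Ggt5 was therefore kept only through the groups where it is high, and its DSS call is counted here but is no support for a difference. The macrophage list, of 6 genes, moved in the same comparison, with means of 9.23 to 9.41 in control and 10.22 to 11.31 in DSS, and its part in these rises was not tested. Of 13 transporters of efflux and uptake none was called in DSS by limma, with the conjugate pump Abcc3 at -0.60 ± 0.68. An unadjusted p under 0.05 was found for 4 of them (19.7% of all genes). Slc51b, part of the basolateral bile acid exporter, rose by 1.73 ± 0.46 in DAPP before DSS. In DSS Slc51b stood at 1.49, without overlap with control and without a call.

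**Figure D5:**
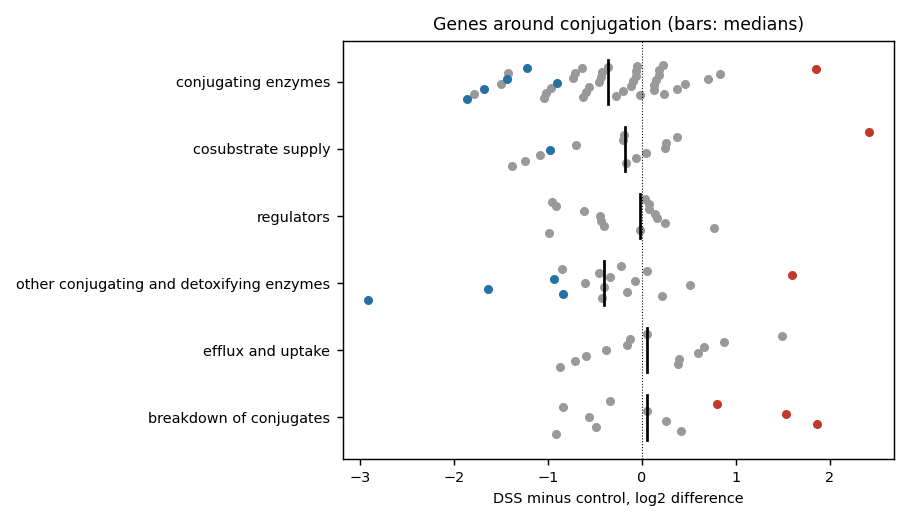
DSS minus control as a log2 difference for each tested gene of the 41 conjugating enzymes and of 5 lists around them, with list medians as bars. Red and blue points were called higher and lower, and grey points were not called. The called genes of conjugate breakdown lie to the right of 0, and most called conjugating enzymes to the left.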

How the data were processed

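The deposited signal intensities of 45281 probes, on a linear scale, come with a detection p-value per probe and array, per the file headers, and the arrays were summarised in GenomeStudio, per the submitters' processing notes. The sources used here do not say how background was handled before deposition. Blank lines (1949) were dropped. The second deposited table, of processed intensities by the authors, served as an alternative.

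Intensities were background-corrected with limma's neqc, with an offset of 16, quantile-normalised and taken to log2 (R 4.3.3, limma 3.58.1). Probes with detection p under 0.05 on at least 3 of 12 arrays were kept (22359), named through the platform annotation with symbols updated by Entrez identifier to GRCm38.p6 (34807 of 34885 matched), and for each of 11933 genes the brightest kept probe was used. A linear model of the 4 groups was fitted to all arrays, with 8 residual and 3.95 prior degrees of freedom. The 6 comparisons and the F test were adjusted by Benjamini-Hochberg over all genes. A gene undetected on every array of the dimmer group has a bound: the brighter group's mean over a floor, averaged over arrays, that is the lowest detected signal (5.18 to 5.70) or the gene's own signal where that is higher. The number of arrays, 3 in each group, limits precision, and a p-value reflects only how far these samples spread. The scripts were tested on simulated data.

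The text names every enzyme called in any comparison, in each family the one with the brightest probe and the one with the largest DSS difference, and each other kept enzyme once. The enzymes, gene lists and markers were chosen with earlier results of these data known. Of list genes, called ones and a few central ones are named. Promoter windows were matched by Entrez identifier to RefSeq's table for GRCm38.p6, with motifs searched on both strands. Alternatives changed the background correction, scaling, filter, probe choice, covariates, weights and arrays fitted. Same-numbered arrays of different groups were checked for pairing, with correlations of residuals from -0.32 to 0.40 and a median of 0.03, so the numbers were not used as pairs.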

Additional observations from a re-analysis of the deposited data

How the results depend on the processing

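Of the 25 calls of an enzyme against control, none reversed under any of 26 alternative settings, and 9 held in all 12 fits that leave out 1 array, among them those of Gstp3 and Sult2b1. The other 16 were lost in 1 to 8 such fits, which also have fewer samples. For DSS against control the 6 calls became 13 with array weights, 10 with the epithelium list mean as a covariate (added after seeing the data), where all genes called went from 801 to 1479 and to 1327, and 2 to 14 when 1 array was left out (2 without control replicate 1, 3 without DSS replicate 1, 14 without replicate 1 of DAPP before DSS). For DAPP before DSS against control the 10 calls became 6 when the pancreas list mean was a covariate and 6 to 12 without 1 array (6 without control replicate 1 or 3). For DAPP during DSS against control the 9 calls (8 lower, 1 higher) became 4 with equal medians (2 lower and 2 higher, Gstk1 among the latter), 24 with array weights and 18 with only the groups compared, where all genes called went from 917 to 1710, 3392 and 2352, 16 without replicate 1 of both DSS and DAPP before DSS (added after seeing the data), and 2 to 14 without 1 array (2 without any 1 control array, 3 without any 1 array of DAPP during DSS, 14 without replicate 1 of DAPP before DSS). The 6 calls of the 4-group test became 13 with array weights, 12 without both of those replicates and 2 to 12 without 1 array (2 without any 1 control array, 12 without replicate 1 of DAPP before DSS). The comparisons of each DAPP group with DSS and with each other gave 0 calls in every setting. With the replicate block, although the numbers do not pair the arrays, the counts against control were 7 for the DSS group, 11 with DAPP given before and 8 with DAPP given during DSS. Equal medians moved the median over all genes to 0.35 in DAPP during DSS against DSS, where the enzyme median was then 0.21 instead of -0.19, and to 0.13 in DAPP before DSS against DSS and against control. With no detection filter, over all 69 genes, the DSS median was -0.05. Where a cause is not evident from fewer samples or genes, the cause was not tested. Signal near background limits Sult5a1, Gsto2, Nat10 and Ugt1a1, none of which was detected in control, and Nat14, detected on 7 of 12 arrays. Ugt2b35, Ugt2b36, Ugt1a6b, Gstm6 and Gstm7 were detected on every control array but not on every treated array. For Ugt2b35 the difference of DAPP during DSS from control ran from -2.74 to -1.13 over the alternative settings.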

Other observations

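Replicate 1 of DAPP before DSS had 20 of the 41 enzymes more than 2-fold below the control mean, against 5 to 14 on the other 8 DSS-treated arrays. On that array Ugt2b35, Sult1d1, Sult4a1, Sult5a1, Gsta1, Gsta2, Gstk1, Gstp3 and Mgst2 were above the control range, as was Inmt. Ugt1a7c, Gstm6 and Gstm1 were the furthest below it, at -3.25, -2.87 and -2.84 on the log2 scale from the lowest control array. The B and plasma cell list, of 2 tested genes, stood at 11.30 on that array and between 7.48 and 9.14 on the others.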
